A study of Mus musculus with 6 samples.

Results

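Monoamine synthesis, uptake and breakdown was followed here through 9 genes: Th, Tph1, Tph2 and Ddc, whose enzymes make dopamine, noradrenaline and serotonin, Slc18a2, Slc6a4 and Slc6a2, whose proteins carry them, and Maoa and Maob, whose enzymes break them down. Every probe set that the platform annotation assigned to one of these symbols alone was taken, which gave 14 of the 45037 probe sets that were not array controls, for 9 of the 18193 genes named on the array. The RNA came from a bacTRAP mouse line (ES691) in which the S100a10 control region drives a tagged ribosomal protein, so that ribosome-bound RNA of S100a10 cells can be pulled from the cortex (translating ribosome affinity purification, TRAP). Mice were given fluoxetine (FLX), a blocker of the serotonin transporter that Slc6a4 encodes, at 0.167 mg/ml in 1% saccharine, against 1% saccharine alone as vehicle (VEH). Treatment ran for 15 to 18 days, there were 3 FLX and 3 VEH samples, and both groups carried the transgene and came from an FVB background crossed to C57BL/6 for 3 to 5 generations. The sources used here give neither the age and sex of the mice nor how many animals a sample held. The p-values therefore speak only of the spread between these samples, which the labels call biological replicates. The submitters state that the line also labels some non-neuronal cells.

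Serotonin is made from tryptophan by a tryptophan hydroxylase (Tph2 in brain neurons, Tph1 mainly outside the brain) and then by the decarboxylase Ddc. Dopamine is made from tyrosine by tyrosine hydroxylase (Th) and the same Ddc. The vesicular transporter Slc18a2 loads the transmitters into vesicles, Slc6a4 takes serotonin back up and Slc6a2 noradrenaline, and the mitochondrial oxidases Maoa and Maob degrade what is left in the cytosol. The cell bodies that make these transmitters lie in the brainstem and midbrain and send axons to the cortex, while the oxidases are also found in many cells that do not release monoamines. In the brain Maob is best known from astrocytes and serotonin neurons. Some cortical inhibitory neurons express Th.

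The promoters of 4 genes are shown because the arrays divided them: Maoa and Th reached the intensity taken as present, and Tph2 and Slc6a4 did not. Each sequence runs 5′ to 3′ on the gene's own strand, from 250 bases before the RefSeq start to 50 bases after it (GRCm38.p6). Capitals mark matches, on either strand, to the TATA box letters TATAAA, the GC box letters GGGCGG or the cyclic AMP response element letters TGACGTCA.
Maoa, chrX:16619448-16619747, plus strand: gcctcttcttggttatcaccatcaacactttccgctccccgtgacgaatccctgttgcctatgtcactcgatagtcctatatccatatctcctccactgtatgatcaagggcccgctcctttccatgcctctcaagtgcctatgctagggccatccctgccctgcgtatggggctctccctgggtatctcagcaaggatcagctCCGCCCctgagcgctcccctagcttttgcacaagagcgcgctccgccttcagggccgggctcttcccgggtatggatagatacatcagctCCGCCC
Th, chr7:142899946-142900245, minus strand: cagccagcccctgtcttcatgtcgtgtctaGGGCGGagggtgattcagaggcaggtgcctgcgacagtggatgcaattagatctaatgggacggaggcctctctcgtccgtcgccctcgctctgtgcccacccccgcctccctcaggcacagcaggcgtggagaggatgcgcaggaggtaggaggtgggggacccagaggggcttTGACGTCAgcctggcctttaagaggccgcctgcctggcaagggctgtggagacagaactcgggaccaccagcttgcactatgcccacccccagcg
Tph2, chr10:115184973-115185272, minus strand: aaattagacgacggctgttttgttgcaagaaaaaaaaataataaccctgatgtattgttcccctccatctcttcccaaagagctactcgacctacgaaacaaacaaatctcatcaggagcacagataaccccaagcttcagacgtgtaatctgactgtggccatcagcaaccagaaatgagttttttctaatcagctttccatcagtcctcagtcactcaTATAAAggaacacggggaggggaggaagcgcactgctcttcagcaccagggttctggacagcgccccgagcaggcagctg
Slc6a4, chr11:76998347-76998646, plus strand: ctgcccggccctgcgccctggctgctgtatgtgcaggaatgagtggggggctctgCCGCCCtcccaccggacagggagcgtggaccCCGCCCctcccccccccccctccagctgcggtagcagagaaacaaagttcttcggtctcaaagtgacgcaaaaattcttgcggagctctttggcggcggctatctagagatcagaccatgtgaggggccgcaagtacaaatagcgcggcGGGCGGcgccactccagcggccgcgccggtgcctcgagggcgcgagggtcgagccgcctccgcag
The Maoa window held 2 GC boxes and 14 CpG pairs, and the Slc6a4 window 3 GC boxes and 28 CpG pairs. The Th window held 1 GC box and a cyclic AMP response element that begins 45 bases before the start. The Tph2 window held a TATA box that begins 30 bases before the start, and no GC box. Among all 32851 promoter windows of this length, 35.7% held the GC box letters, 13.6% the TATA box letters and 1.79% the cyclic AMP response element letters, and the median window had 7 CpG pairs. GC boxes thus stood in windows of genes on both sides of the split. Among the windows not shown, one of Ddc, which was present, held a TATA box that begins 68 bases before the start. That of Slc18a2, which was not present, held a cyclic AMP response element that begins 4 bases before it. The TATA box and the response element thus did not keep to one side either. A letter match is a description of the window and not of binding.

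The arrays were close to each other, with median intensities of 47.3 to 48.6 and pairwise correlations of 0.993 to 0.997 across probe sets. The values are intensities that the authors normalized with GCRMA, which corrects each probe for background and fits the arrays to one distribution. The deposited arrays still differed in their upper quartiles, from 498.4 to 574.3. Of the layer 5 projection neuron markers and the cortical excitatory neuron markers, all 7 and all 6 measured genes reached an intensity of 50, and so did all 10 astrocyte, all 10 inhibitory neuron and 7 of 9 measured oligodendrocyte lineage markers. Of the astrocyte markers, Gfap passed only through FLX 1 (4484) and FLX 3 (519). On the other arrays it read 22.5 to 50.8. Maoa and Maob lie beside each other on chromosome X, and the sex-linked transcripts did not separate the arrays: Xist read 20.8 to 32.9 and the Y-linked Eif2s3y 1342 to 2073 over all 6. Y-linked RNA was thus read on every array, so each sample held material from male mice. Whether any sample also held material from females was not tested.

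A probe set was taken as present where the geometric mean of the 6 arrays came to 50 or more, the level the submitters advise. Of the 14 probe sets, 6 were present, from 5 genes: Maoa (both probe sets), Maob, Ddc, Th and Slc6a2. Over the whole array 49.6% of probe sets were present. Tph1, Tph2, Slc6a4 and Slc18a2 had no present probe set, and the 8 probe sets below 50 read between 4.12 and 31.6 on single arrays. Probe sets differ in how well they bind, so intensities of different genes were not ranked. Genes of liver, pancreas and testis that the cortex is not known for gave 4 present probe sets among 14 measured, with geometric means of 64.9 (Apoa2), 65.0 (Cela3b), 65.5 (Apoc3) and 79.7 (Prm1). These values show that probe sets of genes from other tissues can pass 50 on these arrays, and are not set against those of the 9 genes. Present thus means here only that a probe set passed 50, which by itself does not show that the cells express the gene. In bulk RNA of this kind, fewer cells of a type and less RNA per cell cannot be told apart.

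**Figure D1:**
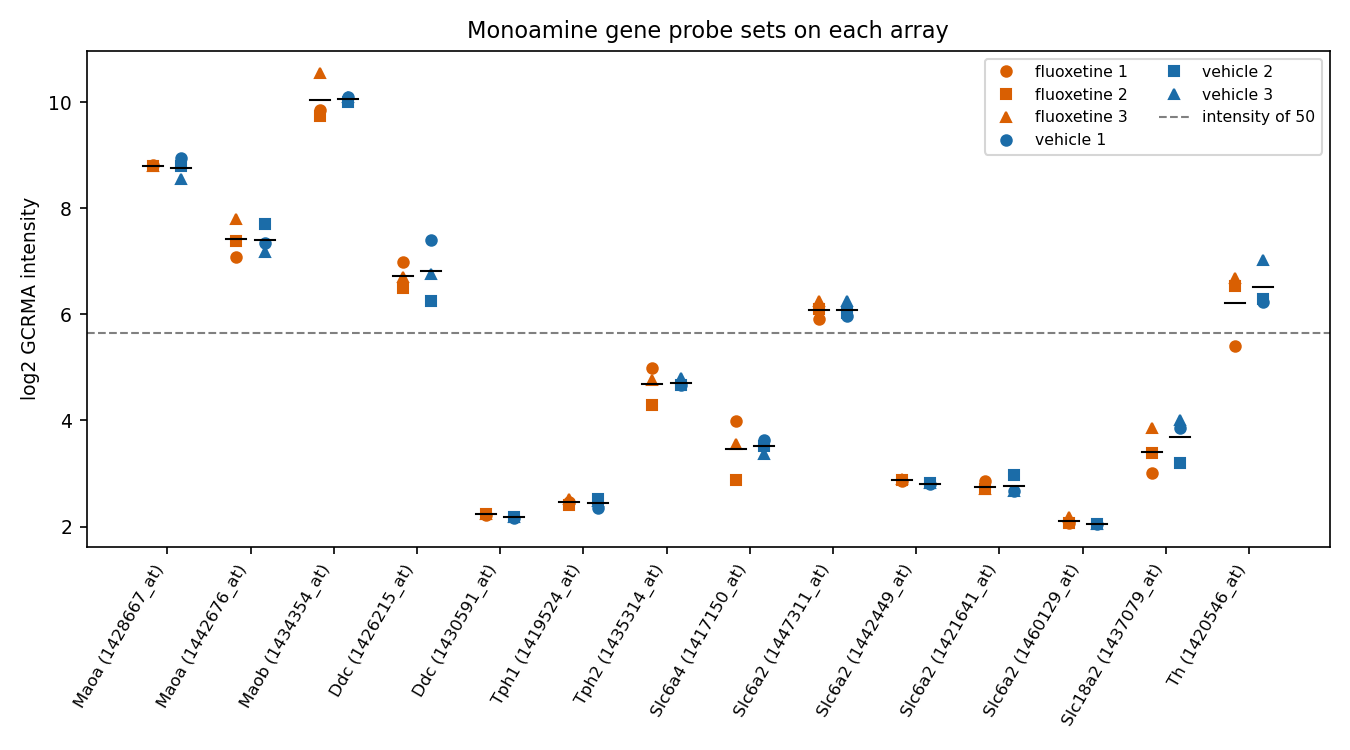
Log2 GCRMA intensity of the 14 probe sets (horizontal axis) on the 3 FLX arrays (orange, left of each pair) and the 3 VEH arrays (blue, right), with black bars for group means and a dashed line at an intensity of 50. Only points of the same probe set can be compared: 6 probe sets have a mean above the line, and the lowest Th point is FLX 1 at 42.6.

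Th, tyrosine hydroxylase, the first enzyme of dopamine and noradrenaline synthesis, read 42.6, 93.3 and 103 on the FLX arrays and 75.2, 77.8 and 130.0 on the VEH arrays (probe set 1420546_at). FLX 1 alone lay below 50, VEH 3 was highest, and the groups overlapped. The geometric mean over all 6 was 82.4, and the highest array was 3.05 times the lowest, the widest spread of the 14 probe sets. Requiring 50 on every array would leave out Th and keep 5 probe sets, and requiring a geometric mean of 100 would leave out both Th and Slc6a2 and keep 4.

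The tryptophan hydroxylases stayed low on every array. Tph2, the enzyme of brain serotonin neurons, read 31.6, 19.7 and 27.3 with FLX and 25.3, 25.3 and 27.7 with VEH. Tph1, the form found mainly outside the brain, read 5.55, 5.32 and 5.72 with FLX and 5.07, 5.75 and 5.57 with VEH. The groups overlapped for both genes, and no array of either reached 50.

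Ddc, the decarboxylase shared by the serotonin and dopamine routes, was present by 1 of its 2 probe sets. Probe set 1426215_at read 127, 90.4 and 104 with FLX and 169, 76.3 and 109 with VEH, so that the FLX values lay inside the VEH range. The other, 1430591_at, read 4.63, 4.69 and 4.71 with FLX and 4.47, 4.54 and 4.56 with VEH, far below 50 on every array. The probe sets of Ddc thus disagreed on whether the gene was present, and which transcripts each one reads was not analysed here.

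Of the transporters, Slc6a4 and Slc18a2 stayed below 50 on every array and 1 probe set of Slc6a2 lay above it. Slc6a4, the serotonin transporter on which fluoxetine acts, read 15.8, 7.35 and 11.8 with FLX and 12.4, 11.5 and 10.3 with VEH. Slc18a2, the vesicular monoamine transporter, read 8.04, 10.4 and 14.5 with FLX and 14.5, 9.16 and 16 with VEH. FLX 1 and FLX 2 marked the ends of the FLX range for Slc6a4, and in both genes the groups overlapped.

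Slc6a2, the noradrenaline transporter, had 4 probe sets, of which 1 was present. That one, 1447311_at, read 60.1, 68.3 and 76.0 with FLX and 62.9, 65.5 and 76.3 with VEH, nearly the same span in both groups. The other 3 had geometric means of 7.18, 6.78 and 4.23. The presence of Slc6a2 thus rests on 1 probe set of 4, with a geometric mean of 67.9. Probe sets of liver, pancreas and testis genes also passed 50, so this value does not by itself show that the cells express Slc6a2.

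The oxidases were the members measured well above 50 on every array. Maoa, which prefers serotonin and noradrenaline, read 449, 444 and 446 with FLX and 491, 443 and 373 with VEH (probe set 1428667_at). The 3 FLX values lay within a few units of each other and inside the VEH range. The other probe set, 1442676_at, read 136, 168 and 222 with FLX and 163, 209.7 and 144 with VEH, again with overlapping groups but with FLX 3 highest.

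Maob, which favours phenylethylamine and also degrades dopamine, read 929, 854 and 1494 with FLX and 1096, 1027 and 1090.3 with VEH. Here the FLX arrays spread on both sides of the VEH arrays, which lay close together: 10.05 ± 0.44 with FLX and 10.06 ± 0.05 with VEH (log2 intensity, SD, n = 3 each). The mean log2 intensity of the 10 astrocyte markers was 11.76, 10.5 and 11.29 on the FLX arrays and 10.61, 10.77 and 10.74 on the VEH arrays, highest on FLX 1, where Maob was low. Gfap, the astrocyte intermediate filament, carried most of that spread, at 4484, 22.5 and 519 with FLX and 26.1, 37.8 and 50.8 with VEH. Without Gfap the mean of the other 9 was 11.71, 11.16 and 11.54 with FLX and 11.26, 11.38 and 11.3 with VEH, still highest on FLX 1. Summed, the 10 markers came to between 49948 and 60911 with FLX and between 49540 and 55404 with VEH. FLX 2 was the lowest FLX array for Maob and for both versions of the astrocyte mean, and the part of astrocyte RNA in the Maob values was not tested.

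The comparison of FLX with VEH asks whether the level of these messages in the ribosome-bound RNA differs after prolonged blockade of serotonin uptake. All 6 samples are ribosome-bound RNA, so a change in translation cannot be told apart from one in message level or in the mix of cells. No member passed. In limma's moderated test over all 22326 present probe sets, with Benjamini-Hochberg adjustment and a threshold of 0.05, 0 were called (0%), no adjusted p being under 0.999. Unadjusted, 563 (2.52%) had a p under 0.05, and none of the 6 present probe sets of the 9 genes was among them. Of these 6, 2 had a higher and 4 a lower mean with FLX, where 33.7% of all tested probe sets had a higher one. After quantile normalization 4 were higher and 2 lower, and 49.7% of all tested probe sets were higher. As deposited, the median difference of the 6 was −0.011 in log2, where the median over all tested probe sets was −0.0578. The groups overlapped for all 6, against 8.05% of tested probe sets with no overlap.

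For the oxidases the differences were small beside their errors. Maoa differed by 0.043 ± 0.13 (log2, SE), with a 95% interval of −0.27 to 0.35, or folds from 0.831 to 1.28. Without VEH 3, its lowest array, the difference was −0.065. Its second probe set differed by 0.015 ± 0.22 (interval −0.50 to 0.53). Maob differed by −0.017 ± 0.21, with an interval of −0.52 to 0.49, or folds from 0.697 to 1.40. Without FLX 1 or FLX 2 its difference was 0.076 or 0.14, and without FLX 3 it was −0.27. These intervals include no change as well as changes in either direction up to those folds. They are not limits of what the test could call with 3 arrays a side.

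For the synthesis enzymes the intervals were wider. Th had the largest difference of the present members, −0.30 ± 0.37 (log2, SE, limma unadjusted p = 0.449, adjusted p = 0.999), with an interval of −1.17 to 0.57. That sign rested on FLX 1, without which the difference was 0.10. Ddc differed by −0.076 ± 0.29 (interval −0.75 to 0.60), and by 0.22 without VEH 1 and 0.041 without FLX 2. Slc6a2 differed by −0.0039 ± 0.14 (interval −0.33 to 0.32), and by 0.083 without FLX 1 and 0.079 without VEH 3.

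The 8 probe sets below 50 were compared in a fit without the filter, in which limma also called 0 of 45037 (0%, smallest adjusted p 0.742) and 2631 (5.84%) had an unadjusted p under 0.05, none of them a member. Slc18a2 differed by −0.27 ± 0.30 (log2, SE), Slc6a4 by −0.031 ± 0.29, Tph2 by −0.019 ± 0.18 and Tph1 by 0.02 ± 0.067. Without FLX 2, Slc6a4 differed by 0.27 and Tph2 by 0.17. The groups did not overlap for 3 of the 8, the second probe set of Ddc and 2 of Slc6a2, all higher with FLX by 0.049 to 0.068. Of all probe sets below 50, 37.4% had groups that did not overlap and 72.6% had a higher mean with FLX, so that 3 of 8 is near the background.

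**Figure D2:**
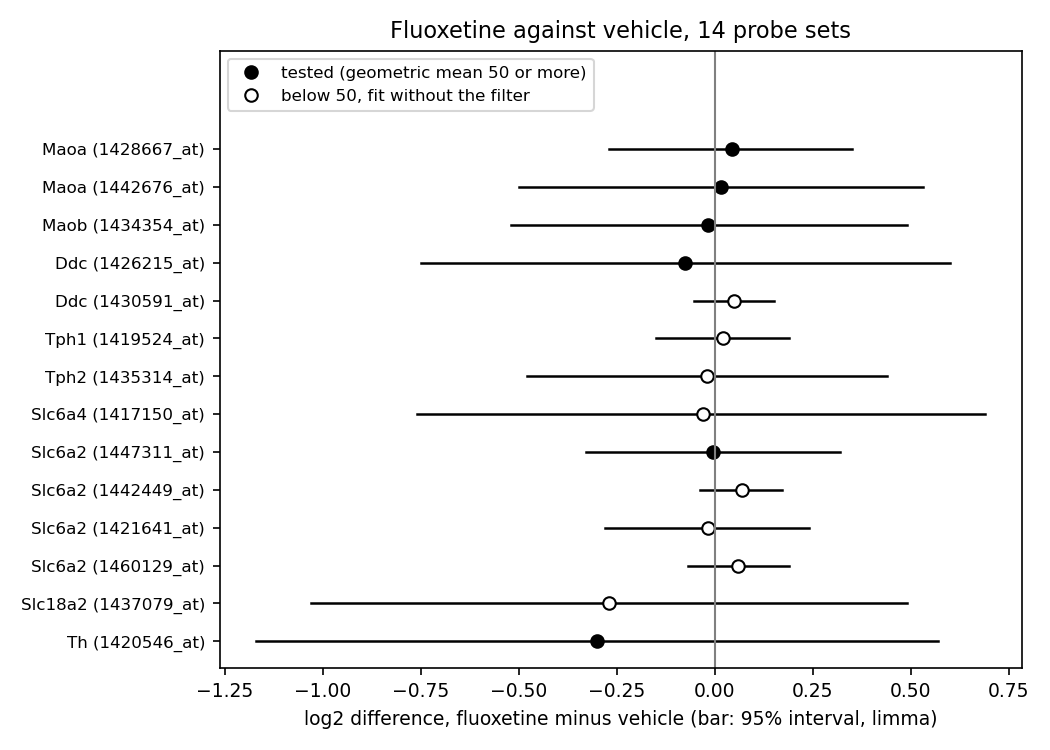
Log2 difference, FLX minus VEH, of the 14 probe sets with limma's 95% intervals as bars; filled points were tested after the filter, open points come from the fit without it. All 14 intervals include 0, and the widest, that of Th, runs from −1.17 to 0.57.

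The rest of monoamine metabolism was read from 4 lists: synthesis of the cofactor tetrahydrobiopterin, other synthesis and conversion, other transport, and other breakdown. Of their 38 genes, 32 had a probe set of their own and 26 were present. None of the 26 passed, 13 had a higher and 13 a lower mean with FLX, and the median difference was −0.022 in log2. As deposited, 33.7% of all tested probe sets had a higher mean, and the median difference over all tested was −0.058. The groups did not overlap for 2 of the 26, against 8.05% of all tested probe sets, so that this count is near the background. An unadjusted limma p under 0.05 was found for 1 of the 26, against 2.52% of all tested. The present genes included Qdpr, which regenerates tetrahydrobiopterin, Hnmt, which methylates histamine, and the aldehyde-handling enzymes Aldh2, Aldh1a1 and Akr1a1. Below 50 were Slc6a3, the dopamine transporter, Slc18a1, the other vesicular transporter, Aanat, of melatonin synthesis, the amino acid enzymes Tat, Tdo2 and Il4i1.

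In the cofactor list, 3 of the 7 present genes had a higher and 4 a lower mean with FLX, and 0 passed. After quantile normalization 4 were higher and 3 lower, where 49.7% of all tested probe sets were higher. Gchfr, the protein that lets tetrahydrobiopterin restrain its own synthesis, read 118, 182 and 138 with FLX and 186, 241 and 246 with VEH. The groups did not overlap, with a difference of −0.63 ± 0.19 (log2, SE), but the limma adjusted p was 0.999 (unadjusted 0.0134). Gch1, the enzyme Gchfr binds, differed by 0.20 ± 0.32, with VEH 2 far below the others at 33.5. Pts, the next enzyme, differed by 0.21 ± 0.12 and Spr, the last one, by −0.17 ± 0.25.

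In the other synthesis list, 4 of the 5 present genes had a higher and 1 a lower mean, and 0 passed. After a shift to a common median 3 were higher and 2 lower, where 32% of all tested probe sets were higher. Pnmt, which makes adrenaline from noradrenaline, read 311, 324 and 329 with FLX and 300.2, 258 and 294 with VEH, groups that did not overlap (difference 0.18 ± 0.11, log2, SE, limma adjusted p 0.999). Dbh, which makes noradrenaline, read 132, 155 and 141 with FLX and 144, 141 and 141 with VEH. Cyb561, an electron carrier of secretory vesicles, differed by 0.19 ± 0.18, Hdc, the histamine-forming enzyme, by 0.061 ± 0.32, and Ido1, a tryptophan-degrading enzyme, by −0.24 ± 0.15.

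Of the present transport genes outside the 9, all 5 had a higher mean with FLX (median difference 0.11), and 0 passed. As deposited, 33.7% of all tested probe sets were higher. All 5 were also higher after quantile normalization, where 49.7% of all tested probe sets were higher. The same held after a shift to a common median, where 32% were. The mean log2 intensity of the 5 was 9.83, 9.31 and 9.53 with FLX and 9.3, 9.29 and 9.57 with VEH. FLX 1 was thus highest, while FLX 2 and FLX 3 lay inside the VEH range. The directions were not recomputed without FLX 1. Slc29a4, a low-affinity monoamine transporter of the plasma membrane, read 769.5, 298 and 559 with FLX and 318, 325 and 428 with VEH. It was high on FLX 1 and FLX 3, the same arrays on which the astrocyte markers had their highest means, and the part of astrocyte RNA in it was not tested (difference 0.51 ± 0.33, log2, SE, limma adjusted p 0.999). Slc22a2, an organic cation transporter, and Slc3a2, a subunit of amino acid transporters, each differed by 0.11, and Slc7a5, a partner of Slc3a2, by 0.071. Of the present breakdown genes, 8 of 9 had a lower mean (median −0.098, against −0.058 and 66.3% lower over all tested probe sets) and 0 passed, and after quantile normalization 7 of 9 were lower: Sult1a1, a sulfotransferase, differed by −0.35 ± 0.19, and the dehydrogenases Aldh9a1 and Aldh2 by −0.15 and −0.087. Aox1, an aldehyde oxidase, differed by −0.098.

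**Figure D3:**
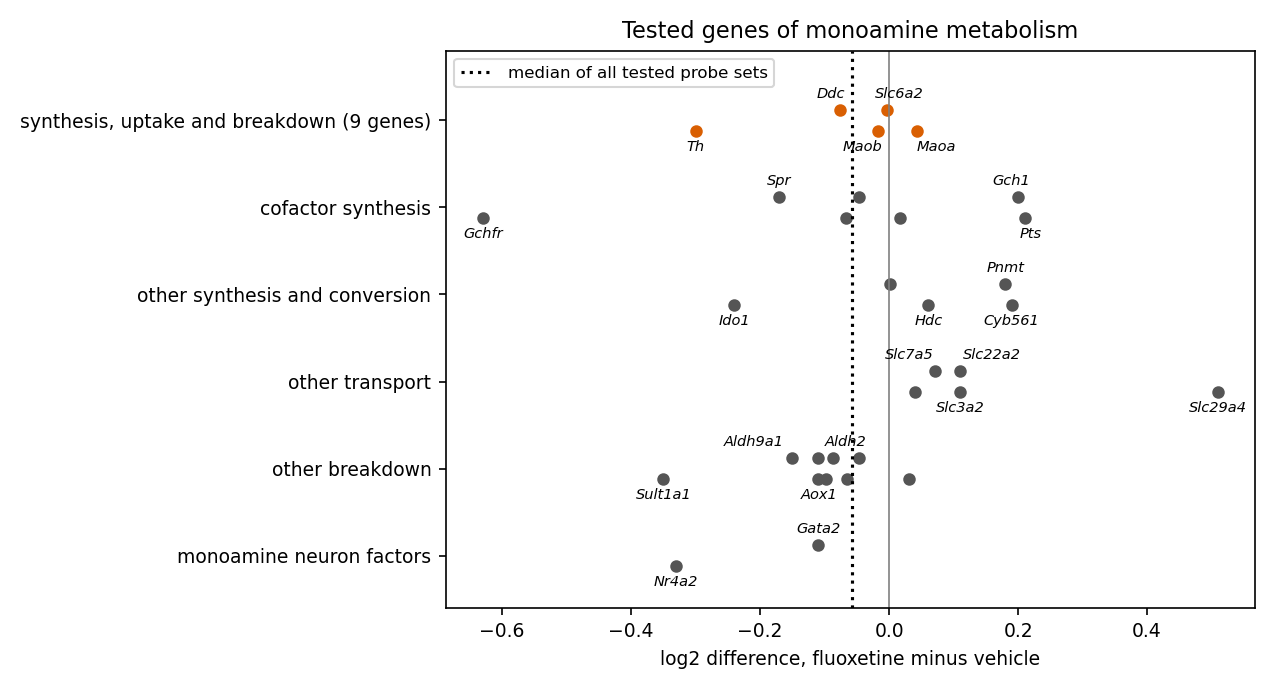
Log2 difference, FLX minus VEH, of the present genes of each list (1 point a gene, represented by its brightest probe set; the 9 genes above, in orange, the other lists in grey), with a dotted line at the median of all tested probe sets. Points are spread vertically only for legibility. The points furthest from 0 are Gchfr at −0.63 and Slc29a4 at 0.51, neither past the threshold.

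Transcription factors that specify serotonin, dopamine and noradrenaline neurons were mostly low. Of 12 measured factors 2 were present, Nr4a2 and Gata2. Lmx1a, Lmx1b, Gata3, En1, En2, Pitx3, Foxa1, Foxa2, Phox2a and Nkx2-2 had geometric means below 50. Nr4a2, which is needed by midbrain dopamine neurons but is also expressed in cortex, read 2367, 2209 and 2197 with FLX and 2661, 3123 and 2726 with VEH. Its groups did not overlap (difference −0.33 ± 0.12, log2, SE), as for 8.05% of all tested probe sets, and limma's adjusted p was 0.999. Gata2 read 46.1 to 56.3 with FLX and 55.1 to 58.2 with VEH, around the level taken as present.

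The genes most like each present member over the 6 arrays were found by Pearson correlation of log2 values among the tested probe sets with 1 symbol, as a description of these arrays only. For Th they were Nt5c2 (0.994), Lhx6 (0.984) and Prima1 (0.982). Lhx6, a transcription factor of inhibitory neurons, read 204, 380.2 and 505 with FLX and 366, 358 and 607 with VEH. Like Th it was lowest on FLX 1 and highest on VEH 3. Prima1, a membrane anchor of acetylcholinesterase, read 56.3, 189 and 187 with FLX and 159, 156 and 299.6 with VEH. The mean of the 10 inhibitory neuron markers, Lhx6 among them, was also highest on VEH 3 but lowest on FLX 2: it was 9.76, 9.39 and 9.68 with FLX and 9.56, 9.66 and 9.84 with VEH (log2). Npy, a neuropeptide gene, and Calb2, which encodes calretinin, raised it on FLX 1, where they read 8529.7 and 222. Without these 2 genes the mean was 9.59, 9.54 and 9.86 with FLX and 9.75, 9.82 and 9.92 with VEH. FLX 1 was then the second lowest array. The 2 genes were left out after the values were seen and were highest on FLX 1, so a lower mean there followed from the choice. Lhx6, named above for its likeness to Th, stayed among the other 8. The part of inhibitory neuron RNA in the Th values was not tested. The summed intensity of all 10 markers, Npy and Calb2 included, was 19865 to 26984 with FLX and 22360 to 23540 with VEH.

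**Figure D4:**
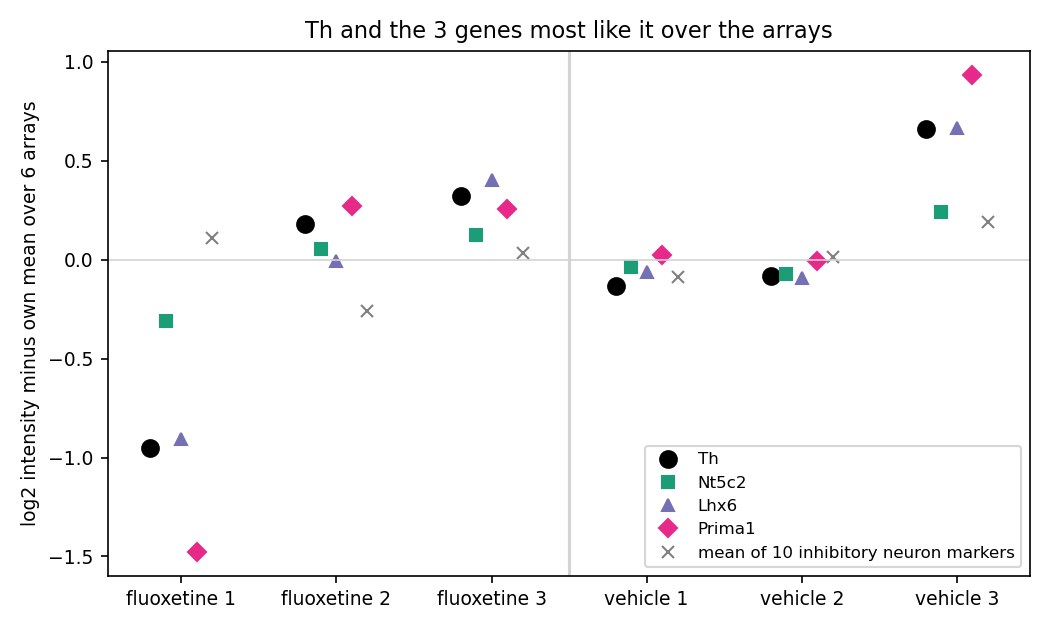
Log2 intensity of Th, of Nt5c2, Lhx6 and Prima1, and of the mean of 10 inhibitory neuron markers on each array, each minus its own mean over the 6 arrays; FLX arrays stand left of the grey line and VEH arrays right of it. The 4 genes are all lowest on FLX 1 and highest on VEH 3, and the marker mean is also highest on VEH 3 but lowest on FLX 2.

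For Maoa the most alike were Zfp385b (0.987), Ptprg (0.981) and Ywhae (0.979), and for Maob Zzef1 (0.986), Slc7a1 (0.973) and Septin3 (0.970). For Ddc they were Ppp2r5c (0.985), Gm14057 (0.967) and Tspyl5 (0.958), and for Slc6a2 Mier2 (0.990), Rep15 (0.972) and Cgas (0.970). With 6 arrays and 20286 or 20287 candidates, correlations above 0.9 were found for 33 to 82 probe sets per member. None of the 3 genes closest to one member was among those closest to another.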

How the data were processed

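Ribosome-bound RNA of S100a10 cells (15 ng per sample, 2 rounds of amplification, per the labels' protocols) was measured on 6 single-colour Affymetrix arrays, 3 fluoxetine and 3 vehicle. The authors deposited 1 intensity per probe set and array, made with GCRMA as the submitters' processing notes state. Its version and a genome build are not given in the sources used here, and the linear scale was inferred from the values (1.74 to 99076). GCRMA presses low intensities towards a floor and removes shifts common to a whole array. The number of arrays limits precision.

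After 64 array controls were left out, 34945 of 45037 probe sets had 1 symbol in the platform annotation, 932 several and 9160 none. Probe sets with several symbols were not used to name a gene. The log2 of the intensity was used, with nothing added. Those with a geometric mean of at least 50 were tested (fluoxetine minus vehicle, two-sided) with limma 3.58.1 in R 4.3.3, without a block, and adjusted over all 22326. Probe sets below 50 were compared in the same fit without the filter. A gene is represented by its brightest probe set. Named genes were the 9 members, up to 4 present genes per list by smallest p and those below 50, and the 3 genes most correlated with each present member; Qdpr, Hnmt, Aldh1a1, Akr1a1, Dbh, Xist, Eif2s3y and the liver, pancreas and testis genes were named after their values were seen. The members and lists were chosen with earlier results of these data known. The test was checked on simulated arrays with known changes. Alternatives were other filters, an offset, other scalings, a replicate block, other variance models, array weights, averaged probe sets and leaving out each array; list directions under other scalings and marker means without Gfap, or without Npy and Calb2, were added after the data were seen. Promoters come from RefSeq (GRCm38.p6) for 7 of the 9 genes.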

Additional observations from a re-analysis of the deposited data

How the results depend on the processing

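No alternative called a member or any other probe set, and the smallest adjusted p of a member over all of them was 0.704 in limma. Since no difference was called, signs carry little: 22 of 133 alternative values had the opposite sign to the reported one. After quantile normalization Maob differed by 0.058, Tph1 by −0.03 and Slc6a2 by 0.00028 in log2; with array weights Maob differed by 0.13, Tph2 by 0.012 and Slc6a2 by 0.07; with an offset of 16 Slc6a4 differed by 0.0033; and with the probe sets of Slc6a2 averaged it differed by 0.027. Leaving out 1 array at a time gave −0.065 to 0.13 for Maoa, −0.27 to 0.14 for Maob, −0.35 to 0.22 for Ddc, −0.034 to 0.057 for Tph1, −0.17 to 0.17 for Tph2, −0.28 to 0.27 for Slc6a4, −0.086 to 0.083 for Slc6a2, −0.51 to −0.067 for Slc18a2 and −0.53 to 0.10 for Th; the cause was not tested. The count of present probe sets was 6 without any 1 array and under both scalings. Samples with the same replicate number did not deviate together (correlations of −0.253, −0.027 and −0.502 of their deviations from the group means), and with the replicate number as a block 0 members and 0 probe sets in all were called, with Th at −0.30 and Maoa at 0.043. Low intensities limit what can be said of Tph1, Tph2, Slc6a4 and Slc18a2, whose values lie where GCRMA compresses differences.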
